A study of Mus musculus with 16 samples.

Results

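The genes described are the protein-coding genes of mouse liver that separated every cadmium-injected mouse from every uninjected mouse, whichever diet the mouse ate. For each gene, the 8 values of the injected mice all lay above, or all below, the 8 values of the uninjected mice. Levels are in TPM, which divide reads by transcript length and bring every library to the same total. Of the 10483 protein-coding genes whose mean reached 1 TPM, 191 met the rule. All 8 injected values were higher for 39 genes, 0.372% of those tested, and lower for 152 genes, 1.45%.

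The mice were wild-type C57BL/6J males with 4 animals in each of 4 groups. Mice of the Cd group received CdCl2 at 1.25 mg/kg by daily intraperitoneal injection for 7 days. Mice of the Se group ate chow with selenomethionine (SeMet) at 2 ppm for 3 months, and mice of the Cd + Se group had this diet and, in its final 7 days, the same CdCl2 injections. The control group had neither. The Cd and Cd + Se mice are called injected here, and the control and Se mice uninjected. The sources used here do not say whether uninjected mice were given a vehicle, so the injection itself and the metal cannot be told apart. Whole liver was sequenced, and in such bulk samples fewer cells of a type and less RNA per cell cannot be told apart. The Cd against control and the Cd + Se against Se comparisons share no mice.

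Cadmium that enters the liver is bound by metallothioneins, small cysteine-rich proteins whose genes are switched on by metals through a metal-responsive transcription factor that binds metal response elements (MREs). Injured liver also makes acute-phase proteins and chemokines, largely under STAT3, NF-kB and C/EBP factors, and the chemokines draw neutrophils and monocytes from blood. Kupffer cells are the macrophages that live in the liver sinusoids and carry scavenger and complement receptors. Hepatocytes are rich in mitochondria, and nearly all mitochondrial proteins are encoded in the nucleus.

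The metallothionein promoters are shown because these genes separated the mice most widely. The 250 bases before the RefSeq start site (build GRCm38.p6) are given 5′ to 3′, with matches to the MRE core (TGCACNC or TGCGCNC, either strand) in capitals. The Mt1 window is chr8:94178839-94179088, plus strand, and the Mt2 window is chr8:94172368-94172617, plus strand.
Mt1: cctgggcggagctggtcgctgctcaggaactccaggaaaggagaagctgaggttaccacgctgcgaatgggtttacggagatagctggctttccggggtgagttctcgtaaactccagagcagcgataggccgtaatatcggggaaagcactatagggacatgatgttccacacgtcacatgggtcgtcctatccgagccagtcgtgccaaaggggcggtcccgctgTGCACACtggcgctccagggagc
Mt2: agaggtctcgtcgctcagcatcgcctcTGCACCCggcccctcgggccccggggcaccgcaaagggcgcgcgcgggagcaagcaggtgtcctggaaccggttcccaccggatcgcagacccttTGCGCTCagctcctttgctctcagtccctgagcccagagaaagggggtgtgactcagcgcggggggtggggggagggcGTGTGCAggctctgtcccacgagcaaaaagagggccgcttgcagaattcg
The Mt1 window held 1 match and the Mt2 window held 3. Bases outside these windows were not searched, so these are not counts for the whole promoters. Of all 32851 RefSeq promoter windows of this length, 21.4% held a match.

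For the chemokine genes Cxcl2 and Cxcl10, the same windows (chr5:90903649-90903898, plus strand, and chr5:92348890-92349139, minus strand) are shown with matches to the kB consensus, the motif NF-kB binds, in capitals.
Cxcl2: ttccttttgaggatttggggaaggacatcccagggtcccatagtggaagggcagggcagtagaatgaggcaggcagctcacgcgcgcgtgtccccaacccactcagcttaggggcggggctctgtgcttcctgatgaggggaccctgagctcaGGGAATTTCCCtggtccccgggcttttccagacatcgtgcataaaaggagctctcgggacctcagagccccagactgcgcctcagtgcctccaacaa
Cxcl10: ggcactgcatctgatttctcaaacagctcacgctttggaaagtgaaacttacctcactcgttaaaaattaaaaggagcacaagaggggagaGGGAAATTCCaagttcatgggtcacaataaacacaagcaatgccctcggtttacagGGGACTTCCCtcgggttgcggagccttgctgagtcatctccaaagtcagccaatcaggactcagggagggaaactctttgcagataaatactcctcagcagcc
Both held 2 matches, and those of Cxcl2 overlap each other on opposite strands. A match is a run of letters and was not tested as a site.

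Before the results, 3 libraries need naming. Cd mouse 5 had 22.2% of its TPM in mitochondrially encoded genes, against 12.8 to 18.04% in the other injected and 13.6 to 17.3% in the uninjected mice, and the lowest median level, 2.68 in log2(TPM + 1). Cd + Se mouse 13 stood above the other injected mice in several immune genes, and Se mouse 40 had the highest median level of the uninjected mice. Without each in turn, 49, 41 and 75 genes were higher and 153, 187 and 165 were lower without overlap. The share of TPM in mitochondrially encoded genes did not separate the groups (exact two-sided permutation within diet, p = 0.969). TPM keep no read depth, so the depth behind each value is unknown. The median difference over all 11766 genes tested, all gene types included, was -0.10 in log2(TPM + 1), -0.17 without SeMet and -0.03 with it.

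Differences below are injected minus uninjected in log2(TPM + 1) from a limma model with cadmium and diet as terms, with standard errors and Benjamini-Hochberg adjusted p over all 11766 genes. Adding 1 TPM shrinks the differences of genes with low levels. In this model 19.9% of all genes passed an adjusted p of 0.05, with 4.39% higher and 15.5% lower in injected mice. The 191 genes were chosen on the same values, so that all of them passed is no finding, and their levels are given as a description.

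The metallothionein genes rose most. Mt1 (ENSMUSG00000031765; chromosome 8, 94179082 to 94180327, plus strand, GRCm38) was at 4899, 3178, 4179 and 4009 TPM in the Cd mice, 6070.3, 3621, 5879.6 and 3947 in the Cd + Se mice, 221, 50.9, 96.8 and 93.99 in the control mice and 64.3, 431, 334 and 215 in the Se mice. The lowest injected mouse, Cd mouse 2, stood above the highest uninjected mouse, Se mouse 40. Mt1 rose by 4.89 ± 0.34, adjusted p = 6.62e-07, and its mean level was 23.7 times higher in injected mice. Mt2 lies on the same strand (chromosome 8, 94172664 to 94173568, plus strand) and was at 4493, 3082, 3875 and 2433 TPM in the Cd mice, 5872, 3064, 5032 and 2765 in the Cd + Se mice, 150.1, 26.4, 49.5 and 50.6 in the control mice and 19.6, 236, 306 and 107 in the Se mice. Within the uninjected mice Mt2 ran from Se mouse 39 to Se mouse 41, and no injected mouse came near that range. It rose by 5.51 ± 0.46, adjusted p = 1.61e-06.

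For other metal genes the balance depended on scaling. Of 35 tested genes for metal transport and buffering, 2 rose (the metallothioneins, which the rule had chosen), 6 fell and 27 did not pass, with a median of -0.11. Over all genes tested 4.39% rose and 15.5% fell, with a median of -0.10. The share that fell and the median of this list were near those values. When libraries were centred on their medians, 5 rose and 6 fell and the median was 0.02. Slc30a1, the zinc exporter that is also an MRE gene, was at 10.4 to 31.6 TPM (median 24.8) in injected mice and 13.3 to 27.9 TPM (median 15.9) in uninjected mice with adjusted p = 0.158. Hmox1, the heme oxygenase induced by oxidants and cadmium, rose (1.36 ± 0.22, adjusted p = 0.00147) but overlapped between groups, at 15.8 to 59.7 TPM (median 22.9) in injected mice and 7.29 to 16.2 TPM (median 9.78) in uninjected mice. Of 51 tested NRF2 and glutathione genes, 2 rose and 2 fell, or 9 and 1 after centring. Of all 11766 genes 517 rose (4.39%), or 1572 after centring, so as deposited the share of this list that rose was near that of all genes.

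**Figure D1:**
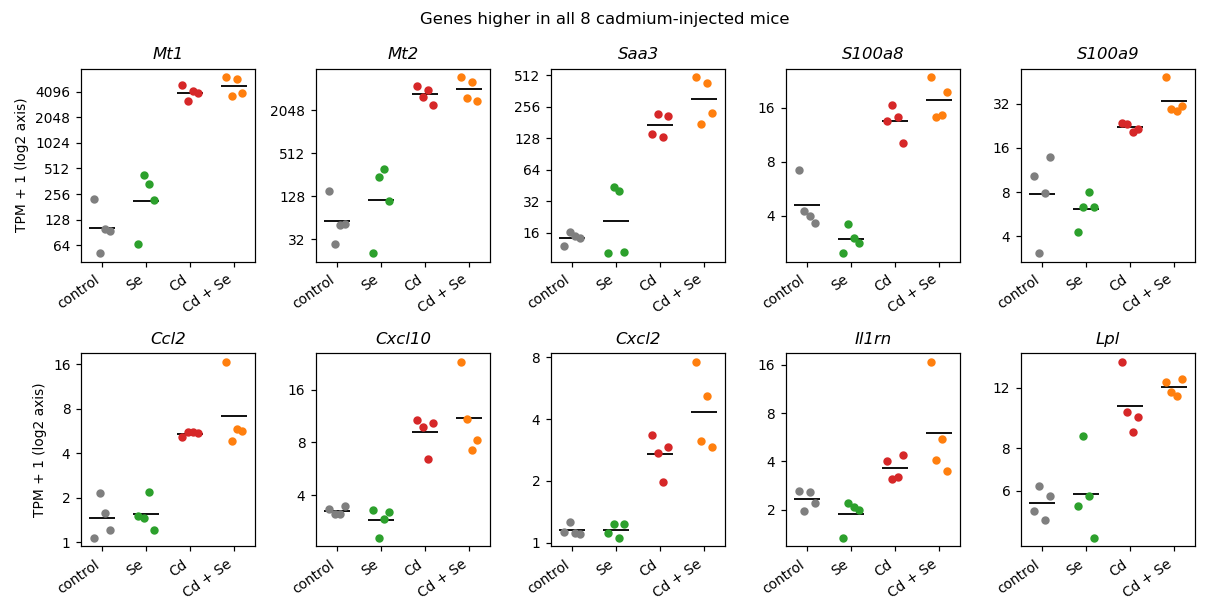
Levels of 10 genes that were higher in all 8 injected mice, as TPM + 1 on a log2 axis, 1 point per mouse, with the mean on the log scale as a line for each group of 4 mice. Every red (Cd) and orange (Cd + Se) point lies above every grey (control) and green (Se) point, and Cd + Se mouse 13 is the highest point for Ccl2, Cxcl10 and Il1rn.

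Acute-phase genes followed. Saa3, an inflammatory serum amyloid A made outside the classical plasma pair, was at 141, 216, 131 and 206 TPM in the Cd mice, 488, 176, 426 and 222 in the Cd + Se mice, 11.02, 15.1, 13.8 and 13.2 in the control mice and 9.25, 42.2, 39.3 and 9.5 in the Se mice. It rose by 3.72 ± 0.30, adjusted p = 1.42e-06. Il1rn, the secreted antagonist of interleukin-1, was at 3.01, 2.11, 2.2 and 3.39 TPM in the Cd mice, 15.6, 3.07, 4.49 and 2.49 in the Cd + Se mice, 1.63, 0.96, 1.6 and 1.22 in the control mice and 0.34, 1.22, 1.09 and 1.0 in the Se mice. Cd + Se mouse 13 stood far above the other injected mice. The rise was 1.16 ± 0.27, adjusted p = 0.0101, and 0.89 without that mouse. The serpin genes Serpina3f and Serpina3g, neighbours on chromosome 12, rose by 0.87 ± 0.14 and 0.85 ± 0.16; reads can be split among their near-identical family, so their values are uncertain.

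Of 40 acute-phase genes tested, 15 rose, 2 fell and 23 did not pass, with a median of 0.12. Only 3 of the 15 were without overlap. Saa1, Saa2 and Lcn2 rose by larger amounts than most members, at 2.45 ± 0.78, 3.12 ± 0.85 and 3.38 ± 0.59, but the groups overlapped. Saa1 was at 494 to 11796 TPM (median 4752) in injected mice and 71.6 to 5641 TPM (median 587) in uninjected mice. Haptoglobin (Hp) was at 3136 to 7070.1 TPM (median 4148) in injected mice and 1706 to 3515 TPM (median 2303) in uninjected mice. Albumin (Alb), the main plasma protein of hepatocytes, fell by 0.54 ± 0.18. After centring, 17 genes of the list rose and 0 fell, so the fall of Alb did not pass there.

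The chemokine genes that rose were low in uninjected livers. Ccl2, which recruits monocytes, was at 4.14, 4.54, 4.53 and 4.44 TPM in the Cd mice, 15.5, 3.84, 4.85 and 4.67 in the Cd + Se mice, 0.07, 1.14, 0.58 and 0.21 in the control mice and 0.51, 0.45, 1.17 and 0.21 in the Se mice. Injected mice other than Cd + Se mouse 13 lay in a narrow band, and the rise was 2.06 ± 0.22, adjusted p = 3.58e-05, or 1.86 without mouse 13. Cxcl2, which recruits neutrophils, was at 2.34, 1.75, 0.98 and 1.91 TPM in the Cd mice, 6.55, 2.12, 4.2 and 1.91 in the Cd + Se mice, 0.13, 0.26, 0.12 and 0.1 in the control mice and 0.12, 0.24, 0.06 and 0.23 in the Se mice. It rose by 1.57 ± 0.19, adjusted p = 1.47e-04. Cxcl10, a ligand of CXCR3, a chemokine receptor found on T cells, was at 9.7, 8.8, 5.46 and 9.3 TPM in the Cd mice, 21.96, 9.88, 6.22 and 7.23 in the Cd + Se mice, 2.31, 2.12, 2.13 and 2.48 in the control mice and 2.29, 1.28, 1.91 and 2.18 in the Se mice. It rose by 1.71 ± 0.20, adjusted p = 8.10e-05, or 1.53 without mouse 13. Cxcl9, its neighbour on chromosome 5 and a ligand of the same receptor, rose by 1.40 ± 0.22, adjusted p = 0.00143. The chemokine receptor gene Cxcr4 was at 0.94 to 3.45 TPM (median 1.5) in injected mice and 0.18 to 0.72 TPM (median 0.475) in uninjected mice.

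NF-kB pathway genes rose by less. Nfkb2, which encodes the p100 subunit of NF-kB, rose by 0.62 ± 0.13, adjusted p = 0.00575, and Ikbke, an IkB kinase gene, by 0.92 ± 0.15, adjusted p = 0.00147. Of 32 tested STAT3 and NF-kB genes, 10 rose, 1 fell and 21 did not pass, with a median of 0.26. Of the 10, 5 were without overlap, so the rule had chosen them. Among these, Ccl2 and Cxcl2 reached a mean of 1 TPM only through the injected mice. Their means in uninjected mice were 0.54 and 0.16 TPM, so that they are counted as rising is no support. Cxcl1, Icam1 and Nfkbia also rose, by 2.30 ± 0.42, 0.58 ± 0.13 and 0.55 ± 0.12, with overlapping groups. In the promoter windows, the kB consensus was matched in 6 of 44 windows of the rising genes (13.6%), which belong to Cxcl2, Cxcl10, Nfkb2 and Serpina3g. It was matched in 1 of 143 windows of the falling genes (0.699%) and in 3.90% of all windows. This motif was added after the rising genes had been seen.

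The other motifs, searched on both strands, were spread differently. The MRE core was in 15.9% of rising, 30.8% of falling and 21.4% of all windows, so it was not more common among the rising genes. The antioxidant response element (TGACNNNGC) was in 11.4%, 6.99% and 10.2%, and a pair of heat shock units (GAANNTTC) in 4.55%, 6.29% and 6.69%. A STAT motif (TTCNNNGAA) was in 9.09%, 4.20% and 7.02%, and a C/EBP motif (TTGCNNAA) in 15.9%, 9.09% and 9.56%. Promoter windows were found for 32 of the 39 rising and 118 of the 152 falling genes.

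Genes of neutrophils and monocytes formed a further group. S100a8 and S100a9 encode the subunits of calprotectin, the main cytosolic protein of neutrophils, and lie near each other on chromosome 3 with S100a4. S100a8 was at 12.6, 15.6, 13.2 and 9.19 TPM in the Cd mice, 22.7, 13.2, 13.7 and 18.7 in the Cd + Se mice, 6.2, 3.28, 3.0 and 2.63 in the control mice and 1.49, 2.59, 2.02 and 1.83 in the Se mice. Cd + Se mice 13 and 16 lay above all Cd mice, and no uninjected mouse came up to the lowest injected one, Cd mouse 6. It rose by 2.06 ± 0.20, adjusted p = 8.39e-06. S100a9 was at 22.5, 22.3, 19.6 and 20.6 TPM in the Cd mice, 47.5, 28.5, 27.6 and 30.1 in the Cd + Se mice, 9.32, 2.08, 6.94 and 12.9 in the control mice and 3.29, 5.3, 7.03 and 5.33 in the Se mice, and rose by 2.00 ± 0.26, adjusted p = 2.90e-04. S100a4, a calcium-binding protein of motile myeloid cells and fibroblasts, rose by 1.74 ± 0.28, adjusted p = 0.00152, or 1.49 without Cd + Se mouse 13. Retnlg, a resistin-like gene of neutrophils, was at 1.07 to 5.94 TPM (median 1.94) in injected mice and 0 to 0.57 TPM (median 0.33) in uninjected mice. Csf3r, the receptor for granulocyte colony-stimulating factor, and Plac8, a myeloid gene, rose by 0.72 ± 0.14 and 0.94 ± 0.18. Lat2, a signalling adaptor of myeloid cells, rose by 0.67 ± 0.15 with the smallest but one gap of the rising genes, 1.08 TPM in the lowest injected against 1.07 TPM in the highest uninjected mouse.

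The neutrophil list as a whole was thin. Of its 12 genes, 4 reached a mean of 1 TPM (S100a8, S100a9, Retnlg and Csf3r), all of them members. Retnlg and Csf3r reached it only through the injected mice, with means of 0.294 and 0.677 TPM in uninjected mice, so that the tested genes rose is no support. Elane, Ly6g and Camp were listed at 0 in 8 or more libraries. The list summed to 35.9 to 78.3 TPM in injected and 6.22 to 17.1 TPM in uninjected mice, most of it S100a8 and S100a9, which the rule had chosen, so no test is given. Of 5 tested monocyte genes 4 rose, 2 of them members, with Ly6c2 (0.68 ± 0.13) and Ccr2 (0.93 ± 0.15), the receptor for CCL2, as the others. The whole list of 8 summed to 171 to 351 TPM in injected and 208 to 296 TPM in uninjected mice. Of the 8, 3 averaged under 1 TPM. The members Plac8 and S100a4 averaged 15.2 and 5.03 TPM over all mice, a small part of these sums, which mostly reflect other genes of the list. The T and NK cell list had no gene at a mean of 1 TPM.

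Collagen and actin-binding genes were also among those that rose, with the lipase gene Lpl. Col3a1 and Col1a2, fibrillar collagens, rose by 1.12 ± 0.24, adjusted p = 0.00677 and 0.71 ± 0.17, adjusted p = 0.0101, and of 5 tested stellate cell and fibroblast markers these 2 passed. The whole list of 10, of which 5 averaged under 1 TPM, summed to 68.5 to 190.1 TPM in injected and 70.5 to 139.7 TPM in uninjected mice. These ranges overlapped. The rule had chosen the 2 collagen genes, so no test of the sum is given. Tmsb10 and Tmsb4x, thymosins that bind actin monomers, rose by 1.06 ± 0.14 and 0.54 ± 0.11, and Capg, an actin-capping protein, by 0.78 ± 0.12. Lgals3, the galectin of activated macrophages and injured epithelium, was at 4.02 to 12.7 TPM (median 6.5) in injected mice and 1.25 to 3.15 TPM (median 2.53) in uninjected mice. Of 35 tested cytoskeleton and injury-related genes 8 rose, 2 fell and 25 did not pass, with a median of 0.26, and after centring 21 rose and 2 fell. Lpl, lipoprotein lipase, low in normal adult liver, was at 13.3, 9.2, 7.94 and 8.85 TPM in the Cd mice, 11.5, 10.7, 10.3 and 11.8 in the Cd + Se mice, 4.24, 5.2, 3.95 and 4.79 in the control mice and 4.42, 7.69, 4.8 and 3.38 in the Se mice. The lowest injected mouse, Cd mouse 5, lay just above the highest uninjected mouse, Se mouse 40, and the rise was 0.99 ± 0.13, adjusted p = 2.48e-04. Lpl is also a gene of fat cells. The 6 listed fat cell markers summed to 61.8 to 142 TPM in injected and 101 to 165 TPM in uninjected mice. This sum was lower with cadmium (exact two-sided permutation within diet, p = 0.00571, adjusted 0.0324). Of the 6, 4 averaged under 1 TPM, so the sum is mostly Fabp4 and Adipor2. Of these 2, Fabp4 rose and Adipor2 fell, so the lower sum rests on Adipor2 and not on the list as a whole. Adipoq, Plin1 and Lep were listed at 0 in 8 or more libraries, and the part of fat cells was not tested.

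Among the rising genes of highest level, Tmsb4x was at 143 to 240.0 TPM (median 184) in injected mice and 104 to 142 TPM (median 133) in uninjected mice, and Selenow at 91.2 to 113 TPM (median 97.9) in injected mice and 64.5 to 90.9 TPM (median 77.9) in uninjected mice. Selenow, a small selenoprotein, was the only 1 of 19 tested selenoprotein genes without overlap, and its gap was the smallest of the rising genes. It rose by 0.38 ± 0.08, adjusted p = 0.0085. Of the selenoprotein genes 2 rose, 1 fell and 16 did not pass, and after centring 4 rose and 1 fell. The other rising genes were Wsb1 (1.07), Mbd1 (0.98), Sh3bgrl3, F830016B08Rik, Tbc1d10a, Znrf1, Mid1, Wdfy1, Fam20a, Or2y1 and Zfp715, the last the smallest rise at 0.36 ± 0.08.

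Genes of tissue-resident macrophages were among those that fell most. Cd163, the scavenger receptor for haptoglobin-bound hemoglobin, was at 0.06, 0.36, 0.29 and 0.14 TPM in the Cd mice, 0.67, 0.32, 0.72 and 0.43 in the Cd + Se mice, 6.23, 6.52, 4.95 and 6.89 in the control mice and 2.75, 9.93, 6.43 and 4.6 in the Se mice. No injected mouse reached 1 TPM, and no uninjected mouse was under 2 TPM. It fell by 2.32 ± 0.17, adjusted p = 6.62e-07, and its mean was 16.2 times lower in injected mice. Timd4, the phosphatidylserine receptor of long-lived Kupffer cells, was at 0.11, 0.12, 0.12 and 0.22 TPM in the Cd mice, 0.65, 0.24, 0.34 and 0.34 in the Cd + Se mice, 3.21, 3.84, 2.56 and 3.52 in the control mice and 2.14, 4.26, 2.56 and 2.58 in the Se mice. The groups were far apart, and the difference was -1.68 ± 0.12, adjusted p = 6.62e-07. Vsig4, the complement receptor CRIg, was at 4.07, 3.18, 4.03 and 4.21 TPM in the Cd mice, 3.37, 5.32, 5.62 and 4.65 in the Cd + Se mice, 18.2, 18.1, 16.2 and 19.3 in the control mice and 8.74, 23.2, 19.96 and 14.4 in the Se mice. Its difference was -1.76 ± 0.16, adjusted p = 4.44e-06. Clec4f, a lectin found on mouse Kupffer cells, was at 21.1, 10.7, 17.4 and 19.2 TPM in the Cd mice, 7.48, 15.5, 14.3 and 20.8 in the Cd + Se mice, 40.8, 42.1, 39.5 and 48.6 in the control mice and 23.9, 54.04, 40.9 and 32.1 in the Se mice. The highest injected mouse, Cd mouse 1, came close to the lowest uninjected mouse, Se mouse 39, and the difference was -1.32 ± 0.19, adjusted p = 7.24e-04. Folr2, a folate receptor of resident macrophages, was at 1.57 to 5.23 TPM (median 3.38) in injected mice and 6.84 to 13 TPM (median 9.84) in uninjected mice, with a difference of -1.21 ± 0.18, adjusted p = 9.30e-04.

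Cxcl13, a chemokine that attracts B cells, was listed at 0 in all 8 injected mice. It was at 2.22, 3.9, 3.8 and 3.64 TPM in the control and 15.7, 3.41, 3.08 and 2.27 TPM in the Se mice, so no fold is given.

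Of 13 Kupffer cell and macrophage markers tested, 0 rose, 8 fell and 5 did not pass, with a median of -0.60, against 15.5% of all genes falling. The same list gave medians of -0.49, -0.47 and -0.63 after quantile normalization, centring and rescaling. In it 1 rose and 8 fell after quantile normalization and again after centring, and 0 rose and 9 fell after rescaling. Besides Clec4f, Vsig4 and Timd4, the fallen markers were Marco (-0.91 ± 0.23), C1qa (-0.73 ± 0.15), C1qc (-0.60 ± 0.14), C1qb (-0.46 ± 0.13) and Adgre1 (-0.69 ± 0.20). Lyz2, shared by monocytes, neutrophils and macrophages, did not pass (0.38 ± 0.16, adjusted p = 0.097). The list, 3 of whose genes the rule had chosen, summed to 134 to 243 TPM in injected and 184 to 315 TPM in uninjected mice. Of these 3, Timd4 reached a mean of 1 TPM only through the uninjected mice, with a mean of 0.27 TPM in injected mice. None of the markers was listed at 0 in 8 or more libraries.

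**Figure D2:**
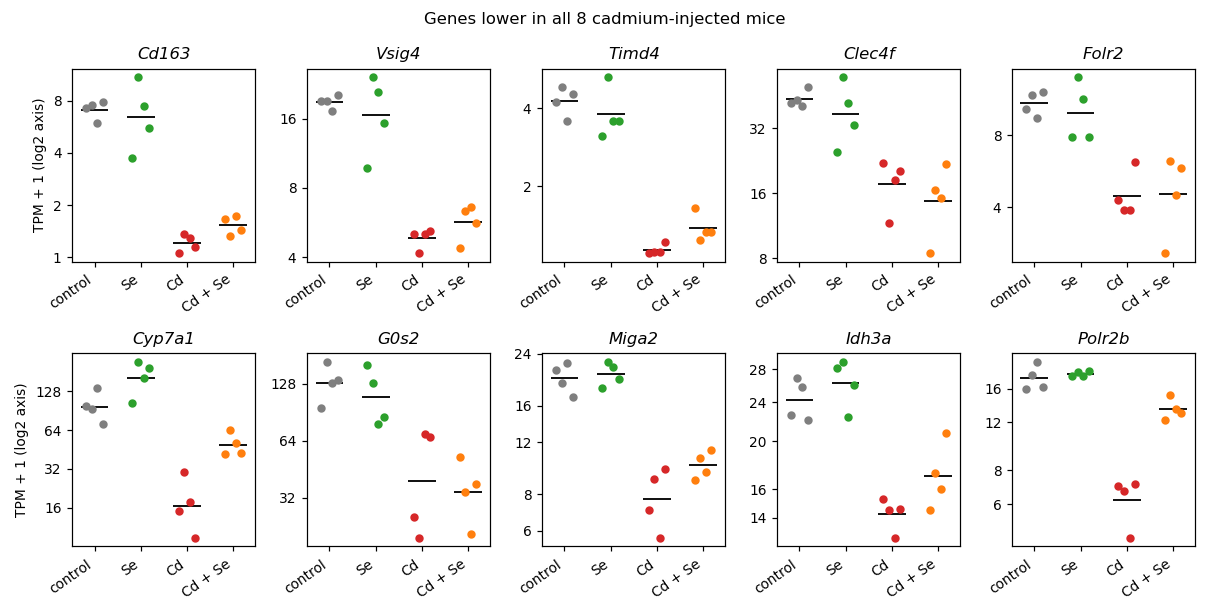
Levels of 10 genes that were lower in all 8 injected mice, as TPM + 1 on a log2 axis, 1 point per mouse, with the mean on the log scale as a line for each group of 4 mice. All Cd and Cd + Se points lie below all control and Se points, and Polr2b is lower in the Cd mice (3.51 to 6.10 TPM) than in the Cd + Se mice (11.2 to 14.2 TPM).

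In hepatocyte metabolism, Cyp7a1, the rate-limiting enzyme of bile acid synthesis from cholesterol, fell most. It was at 14.1, 29.4, 16.7 and 8.37 TPM in the Cd mice, 41.1, 63.1, 49.9 and 41.4 in the Cd + Se mice, 97.3, 92.8, 135 and 70.9 in the control mice and 102, 214, 162 and 192 in the Se mice. All Cd mice lay below all Cd + Se mice, and the highest injected mouse, Cd + Se mouse 14, lay below the lowest uninjected mouse, control mouse 30. The difference was -2.14 ± 0.23, adjusted p = 3.80e-05, or -2.55 ± 0.30 without and -1.73 ± 0.30 with SeMet, and the interaction did not pass (adjusted p = 0.277). Of 25 tested genes of bile acid synthesis and transport, 1 rose (Nr0b2, the repressor SHP, 0.63 ± 0.15), 9 fell and 15 did not pass, with a median of -0.30. Cyp7a1 alone of these was without overlap. Nr1h4, the bile acid receptor FXR, and Slc10a1, the bile acid importer NTCP, fell, with differences of -0.57 ± 0.12 and -0.42 ± 0.12 and overlapping groups.

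Some lipid genes also fell. G0s2, an inhibitor of the lipase ATGL, was at 24.4, 18.6, 68.6 and 66.2 TPM in the Cd mice, 51.2, 33.3, 19.4 and 36.8 in the Cd + Se mice, 95.1, 166, 128 and 134 in the control mice and 160.2, 129, 77.9 and 84.3 in the Se mice. The Cd mice fell into a lower and a higher pair, all under every uninjected mouse. The difference was -1.70 ± 0.27, adjusted p = 0.00143. Abcd3, a peroxisomal transporter of long-chain acyl-CoA, was at 100.3 to 187 TPM (median 152) in injected mice and 192 to 241 TPM (median 219.7) in uninjected mice, with a difference of -0.53 ± 0.10, adjusted p = 0.00463. Nceh1, a cholesteryl ester hydrolase, Ces2a, a carboxylesterase, and Pafah2, a platelet-activating factor hydrolase, had differences of -0.87 ± 0.15, -0.74 ± 0.11 and -0.53 ± 0.09. Of 34 fatty acid oxidation and ketogenesis genes tested, 0 rose and 15 fell, with a median of -0.34, or 1 and 9 after centring, yet 0 were without overlap. Of 22 lipogenesis genes 0 rose and 3 fell, against 15.5% of all genes falling. After centring 3 rose and 1 fell, so the direction depended on scaling. Of 26 cholesterol synthesis genes 1 rose and 0 fell, or 1 and 1 after centring. In fatty acid oxidation, Ppara, the nuclear receptor that drives the pathway, was at 15.7 to 40.8 TPM (median 23.3) in injected mice and 29.5 to 53.1 TPM (median 42.3) in uninjected mice. Esrra, a nuclear receptor that drives mitochondrial genes, was the 1 of 28 tested liver transcription factors without overlap (-0.61 ± 0.11, adjusted p = 0.00247). Of these factors 1 rose, 9 fell and 18 did not pass.

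Mitochondrial genes made up much of the falling group. The Gene Ontology column of the deposited table gives the term mitochondrion itself to 44 of the 152 falling genes (28.9%). It gives that term to 0 of the 39 rising genes and to 12.3% of the protein-coding genes tested. Genes with only a narrower term are not in these counts. The inner membrane term was on 17 falling genes (11.2%) and 1 rising gene (2.56%), against 2.78% of the protein-coding genes tested. These terms were looked at after the members had been seen. Taken as a class, the 1290 tested genes of the mitochondrion term were not uniformly lower. Of them 309 fell (24.0%) and 40 rose, with a median of -0.13, and after centring 213 fell and 143 rose.

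By role, 33 falling genes were grouped by hand into 7 mitochondrial functions, again after they were seen. Their differences ran from -1.20 to -0.31. Miga2, a mitochondrial outer membrane protein that promotes fusion, fell most and was at 6.06, 8.01, 4.68 and 8.75 TPM in the Cd mice, 7.95, 9.62, 8.48 and 10.3 in the Cd + Se mice, 20.2, 18.1, 21.4 and 16.1 in the control mice and 17.4, 21.5, 20.7 and 18.8 in the Se mice. Its groups stood well apart, and the difference was -1.20 ± 0.11, adjusted p = 8.39e-06. Opa1 and Mfn2, the fusion GTPases of the inner and outer membrane, had differences of -0.69 ± 0.15, adjusted p = 0.0072 and -0.68 ± 0.12, adjusted p = 0.0024. Immt, the core protein of the cristae junction, and Afg3l2, an inner membrane protease, had differences of -0.41 ± 0.08 and -0.42 ± 0.09.

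Both subunit genes of NAD-dependent isocitrate dehydrogenase in the falling group belong to the tricarboxylic acid cycle. Idh3a, its catalytic subunit, was at 14.3, 13.6, 11.8 and 13.6 TPM in the Cd mice, 13.5, 16.2, 15.1 and 19.8 in the Cd + Se mice, 21.7, 25.9, 24.8 and 21.1 in the control mice and 27.2, 27.9, 21.4 and 25 in the Se mice, with a difference of -0.70 ± 0.09, adjusted p = 2.63e-04. Idh3b, a regulatory subunit, had a difference of -0.33 ± 0.08. In the respiratory chain the members were Ndufs1 and Ndufv1, core subunits of complex I, Uqcrc1 and Uqcrc2, core proteins of complex III, Atp5a1, the alpha subunit of ATP synthase, and Uqcc1, an assembly factor of complex III. Atp5a1 was at 261, 239.7, 187 and 237 TPM in the Cd mice, 255, 284, 276 and 267 in the Cd + Se mice, 391, 322, 342 and 312 in the control mice and 315, 329.9, 303 and 305 in the Se mice. Cd mouse 5 was the lowest, and the difference was -0.39 ± 0.09, adjusted p = 0.0086, or -0.33 without that mouse. Uqcrc2 was at 73.9 to 119.6 TPM (median 108) in injected mice and 123 to 149.8 TPM (median 132) in uninjected mice, with -0.38 ± 0.09, adjusted p = 0.00921. Uqcc1 had the largest difference of the 6, -0.85 ± 0.15.

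The respiratory chain as a list went both ways. Of 81 tested nuclear genes 5 rose, 8 fell and 68 did not pass, with a median of 0.03, and after centring 13 rose and 7 fell. The genes that rose were Ndufa2, Atp5e, Ndufs4, Uqcrq and Ndufb1, by 0.27 to 0.40, all with overlapping groups. The 8 that fell were the 5 subunits above together with Sdha, Sdhd and Cycs. Of 13 mitochondrially encoded genes 1 rose and 0 fell.

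Genes for mitochondrial gene expression formed the largest role, with 12 members. They include Tefm and Tfb1m, of transcription and rRNA methylation, Mtpap, the poly(A) polymerase, Mrpl3, a ribosomal protein, Mtg1, a ribosome assembly GTPase, Rars2, the arginyl-tRNA synthetase, and Taco1, the translational activator of cytochrome c oxidase subunit I. Differences ran from -0.95 for Taco1 to -0.39 for Mtpap. Mrpl3 was at 7.35 to 14.5 TPM (median 11.9) in injected mice and 14.7 to 20.2 TPM (median 17.9) in uninjected mice, and was the 1 of 78 tested mitochondrial ribosomal proteins without overlap, while 2 of that list rose and 8 fell. After centring, 16 rose and 3 fell. Over all genes 15.5% fell as deposited, and 1.45% of protein-coding genes were lower without overlap. Neither count of the ribosomal list stood above its share. Fastkd1, Ptcd3, Nsun3, Mrm2 and Osgepl1 complete the role. Smaller roles were import (Tomm40 and Timm10, with the chaperone Trap1), coenzyme Q synthesis (Coq5 and Pdss1) and carriers (Slc25a10, Slc25a11 and Slc25a29), with differences from -0.66 to -0.36. Car5a, the mitochondrial carbonic anhydrase of hepatocytes, fell by 0.66 ± 0.12.

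**Figure D3:**
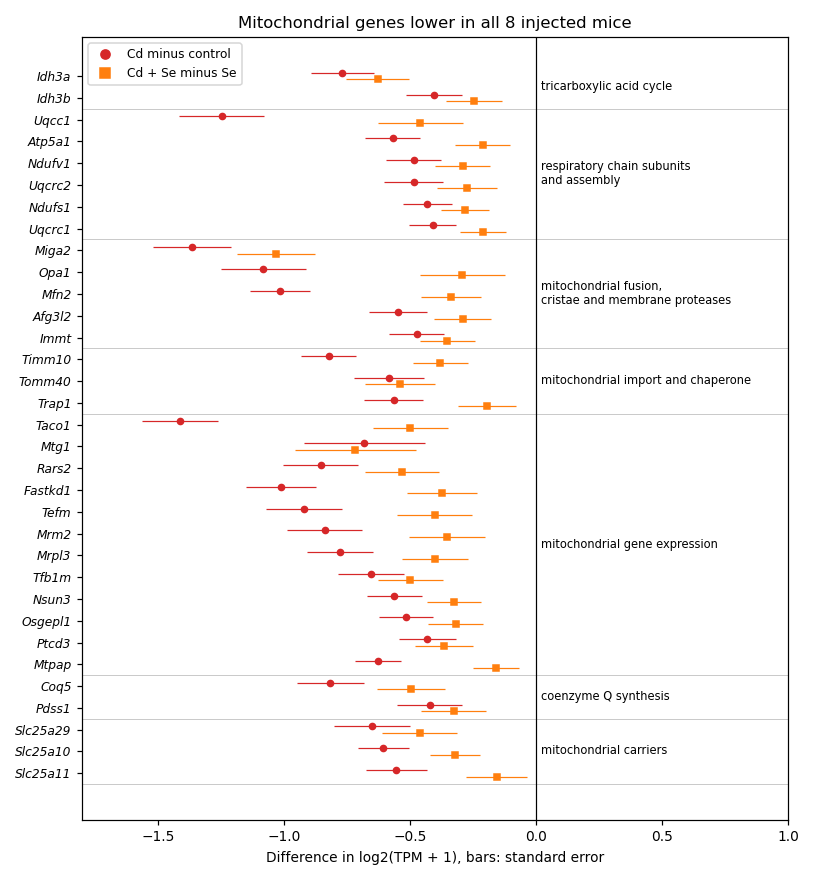
Difference in log2(TPM + 1) for the 33 falling genes with a mitochondrial role, Cd minus control (red circles) and Cd + Se minus Se (orange squares), each from 4 against 4 mice with its standard error. All points lie left of 0, and for 32 of the 33 genes the difference is larger without SeMet; the exception is Mtg1.

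Genes of RNA and protein synthesis were also among those that fell. Polr2b, the second largest subunit of RNA polymerase II, was at 5.99, 5.7, 3.51 and 6.1 TPM in the Cd mice, 11.2, 14.2, 12.5 and 12 in the Cd + Se mice, 14.99, 16.9, 19.01 and 15.2 in the control mice and 16.9, 17.5, 16.9 and 17.5 in the Se mice. The Cd mice lay lowest, the Cd + Se mice between them and the uninjected mice. Its difference was -0.96 ± 0.16, adjusted p = 0.00173. Polr1a, the largest subunit of RNA polymerase I, and Nol6, Ddx18, Wdr36, Wdr18 and Ddx24, of ribosome assembly or the nucleolus, had differences from -0.77 to -0.37. Dars and Farsb, cytosolic tRNA synthetases, had differences of -0.44 ± 0.09 and -0.54 ± 0.12, and Rtcb, the tRNA ligase, of -0.37 ± 0.12. The cytosolic ribosomal protein genes had no member in either group. Of 83 tested, 16 rose, 1 fell and 66 did not pass, with a median of 0.21, and their reads can be shared with many processed pseudogenes. After quantile normalization 32 rose, and after centring 65 rose.

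The most abundant falling genes changed by modest amounts. Ddt, a relative of the cytokine MIF, was at 338 to 430.4 TPM (median 369) in injected mice and 433 to 602 TPM (median 482) in uninjected mice, with a difference of -0.37 ± 0.08, adjusted p = 0.00677. Pgk1, a glycolytic kinase, was at 87.02 to 159.6 TPM (median 126) in injected mice and 167 to 236 TPM (median 181) in uninjected mice, with -0.60 ± 0.11, adjusted p = 0.00337. Psmc3 was the 1 of 47 tested proteasome genes without overlap (-0.36 ± 0.08, adjusted p = 0.00649). Of 231 tested Zfp genes 4 rose and 29 fell, or 20 and 18 after centring. Among them, Zfp961 (-0.82 ± 0.12), Zfp367 (-0.43 ± 0.09) and the rising Zfp715 were without overlap. Over all genes 15.5% fell, and 0.372% of protein-coding genes were higher and 1.45% lower without overlap. Neither the Zfp genes that fell nor those without overlap stood clearly above these shares. Scly, the lyase that recovers selenium from selenocysteine, fell by 0.33 ± 0.08, adjusted p = 0.0106. The remaining falling genes had differences from -0.90 (Sdr42e1) to -0.27 (Wdr24). They include Mme, the peptidase neprilysin (-0.81 ± 0.14), Rfc1, the large subunit of the clamp loader (-0.70 ± 0.13), Prmt5, an arginine methyltransferase (-0.59 ± 0.12), Ggcx, the vitamin K-dependent carboxylase of clotting factors (-0.53 ± 0.10), Parn, a poly(A)-specific ribonuclease (-0.51 ± 0.10), and Casp8, an initiator caspase (-0.40 ± 0.08). Outside every list, Paqr7, a membrane progestin receptor, was at 4.78 to 10.9 TPM (median 7.71) in injected mice and 13.9 to 20.04 TPM (median 17.5) in uninjected mice, and Hdhd3 at 2.92 to 12.6 TPM (median 7.93) in injected mice and 14.3 to 23.9 TPM (median 17.8) in uninjected mice. Hdhd3 was lowest in Cd + Se mouse 13, and its difference was -1.14 ± 0.20, adjusted p = 0.00247, or -0.96 without that mouse.

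The edge of the rule is narrow. Just inside it, Zfp367 was at 8.7 TPM in the highest injected and 8.71 TPM in the lowest uninjected mouse, and C330018D20Rik at 5.25 and 5.26 TPM. Just outside it, Tmem109 and Xpnpep1 had the same value in those mice, 6.96 and 13.1 TPM. On the rising side, Coro1a was at 3.63 TPM in the lowest injected and 3.64 TPM in the highest uninjected mouse, and Tnfaip3 at 0.96 and 0.97 TPM. Single mice decided many genes. Without Se mouse 40 the rising group grew by 36 genes, among them Hmox1, Bax and Hp. Without Cd + Se mouse 14 or 15 the falling group grew by 118 or 125 genes, among the latter Hnf4a, Acadvl and Acsl1.

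Whether the cadmium difference depended on diet was asked by the interaction term, which the rule did not use, although groups without overlap in both diets leave less room for opposite effects. Over all genes 1.04% (122 of 11766) passed. Of the 191 genes 3 passed, all falling genes with a smaller fall under SeMet. Among the 191, 9 passed after quantile normalization, 8 after centring and 24 after rescaling. Polr2b differed by -1.49 ± 0.14 without and -0.44 ± 0.14 with SeMet (interaction 1.05 ± 0.19, adjusted p = 0.0264). Glyctk, glycerate kinase, was at 39.3, 39.3, 32.5 and 41.1 TPM in the Cd mice, 58.2, 67.9, 74.9 and 57.96 in the Cd + Se mice, 85.8, 89.8, 93.1 and 79.2 in the control mice and 75.1, 90.1, 79.8 and 82.01 in the Se mice. It differed by -1.17 ± 0.11 without and -0.34 ± 0.11 with SeMet (interaction adjusted p = 0.029). Taco1 was at 3.97, 4.32, 2.77 and 3.81 TPM in the Cd mice, 5.35, 7.97, 9.53 and 8.63 in the Cd + Se mice, 11.4, 13.1, 11.6 and 9.88 in the control mice and 10.7, 11.3, 11.4 and 11.8 in the Se mice. It differed by -1.41 ± 0.15 without and -0.50 ± 0.15 with SeMet (interaction adjusted p = 0.0493). Leaving out 1 mouse at a time, between 0 and 6 of the 191 genes passed by limma. None did without control mouse 28 or 29, Cd + Se mouse 14, or Se mouse 39, 41 or 44, where 46 to 54 had an unadjusted p under 0.05, against 56 with all mice. Over all genes 2505 of 11766 (21.3%) had an unadjusted interaction p under 0.05.

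Across the falling genes, the median difference was -0.67 without and -0.36 with SeMet, and 133 of 152 (87.5%) had the larger difference without SeMet. Over all genes tested that share was 72.7%. Without Cd mouse 5 the count was 128 and the medians -0.59 and -0.36. After centring the libraries the count was 105 of 152, against 8274 of all 11766 genes, so the share no longer stood above that of all genes, and the medians were -0.45 and -0.33. Of the 5 macrophage genes, Clec4f differed by -1.31 ± 0.27 without and -1.34 ± 0.27 with SeMet, and Cd163 by -2.56 ± 0.24 without and -2.07 ± 0.24 with SeMet. The interaction did not pass for any of the 5, with adjusted p from 0.276 for Timd4 to 0.977 for Clec4f.

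The rising genes leaned the other way. Their median was 0.78 without and 1.04 with SeMet, and 25 of 39 had the larger difference with SeMet, or 21 of 38 without Cd + Se mouse 13. After centring, 19 of the 39 had the larger difference without SeMet, so this lean went away. With all mice, all of the 5 chemokine and chemokine receptor genes and all of the 7 neutrophil and monocyte genes were among the 25. Both metallothioneins were not. Without Cd + Se mouse 13, the highest injected mouse for Ccl2, Ccl2 no longer had the larger difference with SeMet. The lowest interaction p of a rising gene was 0.0866 after adjustment, for Tbc1d10a. The diet term itself passed for 3 genes of all tested (0.0255%) and for none of the 191, whose lowest adjusted p was 0.125. At an unadjusted p under 0.05 it passed for 3 of 39 rising and 49 of 152 falling genes, against 1816 of all 11766.

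**Figure D4:**
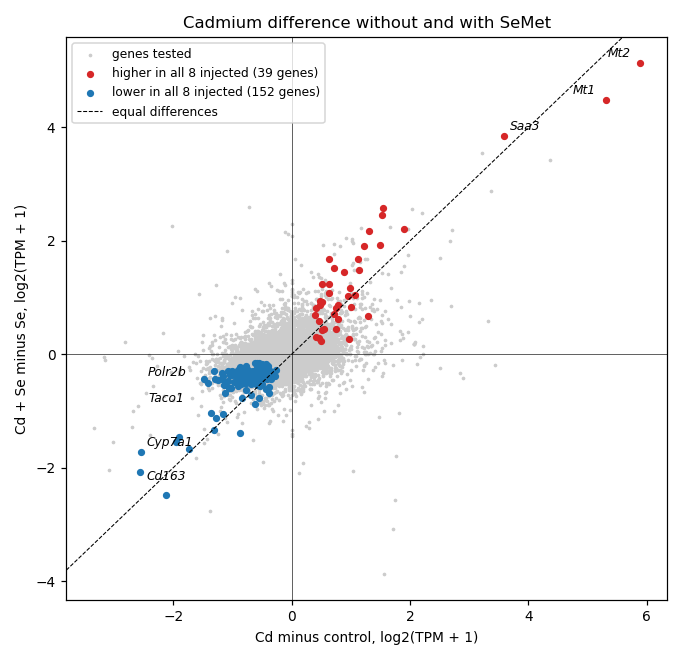
Difference in log2(TPM + 1) of every gene tested, Cd minus control on the x axis and Cd + Se minus Se on the y axis, each 4 against 4 mice, with the 39 rising genes in red, the 152 falling genes in blue and a dashed line where the differences are equal. Most blue points lie above the line, with a fall that is smaller with SeMet, and the metallothioneins lie at the upper right.

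The number of genes in each group depended on how libraries were scaled, and the balance of rising to falling most of all. Without overlap, quantile normalization left 91 genes in the rising and 127 in the falling group, centring 111 and 94, and rescaling without mitochondrial and the 10 highest genes 36 and 229. Of the 39 rising genes, 31 stayed without overlap under all 3 scalings, among them Mt1, Mt2, Saa3 and every chemokine gene above. Of the 152 falling genes, 61 did, among them the 5 macrophage genes, Cyp7a1, Miga2, Idh3a, Mfn2, Polr2b and Glyctk, but not G0s2, Opa1, Taco1 or Hdhd3. The differences of the 191 genes changed sign under none of the 3 scalings. Of the 33 mitochondrial genes, 12 stayed without overlap after quantile normalization, 10 after centring and 32 after rescaling. Among all genes that passed limma, the share that were higher was 22.0% as deposited, 41.8% after quantile normalization, 54.7% after centring and 17.0% after rescaling.

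**Figure D5:**
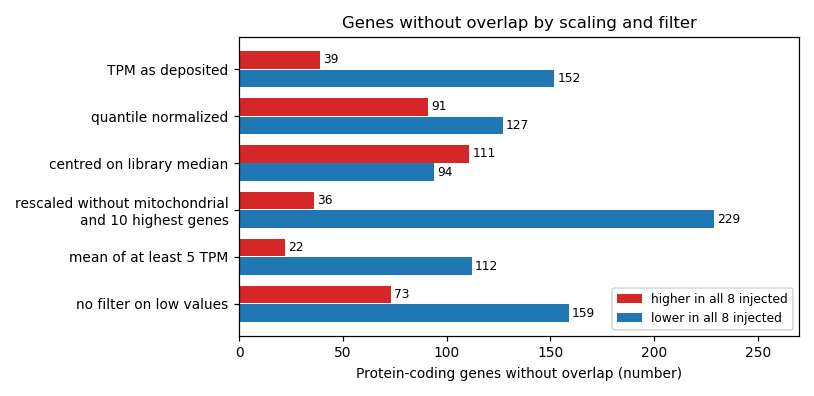
Number of protein-coding genes without overlap between 8 injected and 8 uninjected mice (bars, from 0), higher (red) or lower (blue) in the injected mice, for the deposited TPM and 5 other scalings or filters. The blue bar is longer than the red one except after centring, where 111 genes were higher and 94 lower.

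The rising genes had short transcripts. The median annotated transcript length was 907 bases for the rising and 1331 bases for the falling genes, against 1314 bases over the protein-coding genes tested. With these genes split into 3 near-equal classes by length, 19, 11 and 9 rising genes and 50, 51 and 51 falling genes lay among the short, middle and long transcripts. Over 10470 protein-coding genes the rank correlation of difference and length, a description across genes that share libraries, was -0.14. Its part in the results was not tested. Malat1, a nuclear noncoding RNA, was at 71.5 to 148 TPM in injected and 52.2 to 85.8 TPM in uninjected mice (exact two-sided permutation within diet, p = 0.00286, adjusted 0.0243), and its part was not tested either. An annotated gene on the opposite strand overlapped 11 of the 39 rising and 62 of the 152 falling genes, among them Mt2, Cxcl10, G0s2, Polr2b (with Igfbp7) and Glyctk. The labels do not say whether strand was kept, so reads of such pairs may not have been told apart.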

How the data were processed

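Liver RNA of 16 mice was measured by poly(A)-selected RNA-seq on a NovaSeq instrument. Per the labels, the authors trimmed reads with fastp, aligned them with HISAT2 and estimated levels with StringTie; versions are not given in the sources used here. The notes name build GRCh38, a human assembly, although the gene identifiers are mouse Ensembl. The authors deposited 1 table of 57010 genes with 1 column of TPM per mouse, each summing to 999999 to 1000001, and TPM keep no depth, so precision rests on the mice and no counting interval is given. Titles name 2 runs per sample, but each has 1 column, so runs could not be compared.

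From these values, log2(TPM + 1) was fitted with limma 3.58.1 in R 4.3.3 (empirical Bayes with a trend, Benjamini-Hochberg adjustment) over the 11766 genes of any type that averaged 1 TPM or more, with cadmium and diet as terms. Interactions and differences within a diet came from a fit of 4 group means. Single library quantities were tested by an exact two-sided permutation of 4900 arrangements within diet. The fit was tested on simulated data. Coordinates are from GENCODE M21 (GRCm38), which held all 191 genes, and promoters from RefSeq (GRCm38.p6). Labels name no batch, cage or sequencing date, and mice are numbered without pairs. They do not say that the animals of a group were housed apart, so p-values measure the spread between these mice.

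The genes, the 31 function lists and the 12 marker lists were chosen with earlier results of these data known. Genes to name were taken by rule, from those without overlap: Mt1 and Mt2, the 12 largest differences and 5 highest levels in each direction, the 2 largest differences per function list and direction, up to 6 with an interaction, and the 2 narrowest gaps and 2 smallest overlaps in each direction. Others, the role groups, the Gene Ontology terms and the kB motif were chosen after values were seen. Alternatives were another pseudocount, no filter or a stricter one, quantile normalization, centring on library medians, rescaling without mitochondrially encoded and the 10 highest genes, other models and leaving out each mouse. Certain genes are not reported here.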

Additional observations from a re-analysis of the deposited data

Results flagged for a closer look

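In 130 groups of 8 injected or 8 uninjected mice, over named genes and library quantities, 18 had 1 mouse whose gap to its nearest neighbour, divided by the range, passed Dixon's 95% value of 0.526. Gaps and ranges were taken on log2(TPM + 1) for single genes and on TPM for summed markers, so gene ratios differ from those of the TPM printed. Chance would flag about 1 in 20 such groups, or 6.5, and genes in the same mice are not independent.

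Cd + Se mouse 13 stood apart from the other injected mice 7 times. It was highest for Ccl2 (gap ratio 0.845), Cxcl10 (0.589), Lgals3 (0.531), Il1rn (0.661), Coro1a (0.605) and the summed neutrophil markers (0.557), and lowest for Hdhd3 (0.582). Cd mouse 5 was lowest for Atp5a1 (0.57) and Uqcrc2 (0.591), at 187 TPM against 237 to 284 TPM and 73.9 TPM against 98.2 to 120 TPM. Cd + Se mouse 15 was lowest for the summed pancreatic acinar markers (0.582).

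Among uninjected mice, Se mouse 40 was lowest for Cxcl10 (0.577) and highest for Zfp367 (0.736), the median level (0.537) and the summed hepatocyte markers (0.549). Se mouse 39 was highest for Cxcl13 (0.745), at 15.7 TPM against 2.22 to 3.9 TPM in the other uninjected mice, and lowest for Lgals3 (0.631), Il1rn (0.564) and the summed B and plasma cell markers (0.585). What set these mice apart was not tested.

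The cadmium difference varied with diet for Polr2b (interaction 1.051 in log2(TPM + 1)), Taco1 (0.914) and Glyctk (0.836), each smaller with SeMet by limma's interaction test.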

How the results depend on the processing

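No difference of the 191 genes changed sign under any alternative. Of these genes 9, all falling, missed an adjusted p of 0.05 in at least 1 of them. As reported, 2345 genes passed (517 higher, 1828 lower), 39 and 152 were without overlap, 122 had an interaction and 3 a diet effect. With no filter on low values 1166 genes were lower, 73 were higher without overlap and 26 had an interaction. Counting genes of 5 TPM or more on average, 331 were higher, 22 were higher without overlap and 0 had a diet effect by limma, with 1241 at an unadjusted p under 0.05. Quantile normalization gave 1186 higher, 91 higher without overlap and 524 interactions. Centring gave 1572 higher, 111 higher and 94 lower without overlap, and 731 interactions. Rescaling gave 2858 lower, 229 lower without overlap and 724 interactions. Requiring a log2 difference of at least 1 left 112 genes (73 higher, 39 lower), 71 interactions and 1 diet effect. The causes were not tested.

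Leaving out 1 mouse, 1282 to 2691 genes passed (309 to 671 higher, 973 to 2116 lower), 39 to 75 were higher and 153 to 277 lower without overlap, 3 to 349 had an interaction and 0 to 5 a diet effect. With fewer mice fewer values must separate, so groups without overlap grow. The total was 1487, 1454 and 1282 without control mouse 27, 28 or 29. The lower group was 270 and 277 without Cd + Se mouse 14 or 15, and the higher group 75 without Se mouse 40. Interactions were 16 to 48 without a control mouse, 36 and 73 without Cd mouse 2 or 6, 15 to 31 without Se mouse 39, 41 or 44, 3 and 78 without Cd + Se mouse 14 or 16, and rose to 216 without Cd mouse 1 and 349 without Se mouse 40. The diet effect was at 0 without control mouse 27 or 30, Cd mouse 1, or Cd + Se mouse 14 or 16, with 1289 to 1897 genes at an unadjusted p under 0.05. No paired analysis was possible because the labels number each mouse once and the groups share no number.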

Other observations

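Outside the protein-coding genes, 10 of 1283 tested genes (0.779%) were without overlap between the 8 injected and 8 uninjected mice, of which 7 were higher and 3 lower. Gm45774, a noncoding gene annotated on the strand opposite Mt2, was at 4.52 to 40.4 TPM (median 29.1) in injected mice and 0.13 to 1.26 TPM (median 0.335) in uninjected mice, with a difference of 3.90 ± 0.36, adjusted p = 6.30e-06. Reads of Mt2 and Gm45774 may not have been told apart. Gm379, a transcribed processed pseudogene, was at 2.3 to 10.4 TPM (median 6.73) in injected mice and 0.08 to 2.18 TPM (median 1.36) in uninjected mice. Tbx3os1, a noncoding RNA beside the gene of the transcription factor TBX3, was at 13.8 to 25.1 TPM (median 18.6) in injected mice and 5.47 to 13.2 TPM (median 7.67) in uninjected mice, with a difference of 1.05 ± 0.16, adjusted p = 0.00143. Mir17hg, the host transcript of the miR-17 cluster, was at 1.49 to 2.7 TPM (median 1.77) in injected mice and 0.81 to 1.27 TPM (median 1.06) in uninjected mice, with a difference of 0.52 ± 0.10, adjusted p = 0.0042. Among the 3 that were lower, 2810408I11Rik had the largest difference, -0.67 ± 0.16, adjusted p = 0.0101.

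Of 20 tested immediate early genes 5 rose (Klf6, Ier3, Mafk, Fosl2 and Maff) and 0 fell, and of 39 endoplasmic reticulum chaperone and ATF4 target genes 6 rose, including Trib3 and Gdf15, and 0 fell. After centring, 8 and 14 rose. In both lists 0 genes were without overlap. Of 25 heat shock genes 0 rose and 3 fell (Hspd1, Dnaja1 and Fkbp4), or 0 and 1 after centring. Of 42 cytochrome P450 genes of families 1 to 4, 0 rose and 7 fell, among them Cyp2c29 and Cyp3a11, again with 0 without overlap. After centring 0 rose and 5 fell. Over all genes tested 4.39% rose and 15.5% fell, so the shares that fell in the heat shock and cytochrome P450 lists were near that of all genes.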
